A study of Homo sapiens with 6 samples.

Results

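Cystatins are small protein inhibitors of papain-like cysteine proteases, the cysteine cathepsins of lysosomes. The members described here are 8 genes of the deposited table chosen by name, of 58735 named genes in all. CST1, CST2, CST4, CST3 and CST6 encode secreted cystatins, CST7 encodes a cystatin that is sorted to endosomes and lysosomes, and CSTA and CSTB encode cytosolic cystatins, also called stefins. The family was picked because CST1 was among the genes with the largest fold change in these libraries, so the difference in CST1 between the groups is given as a description, without a test.

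RNA came from LS174T, a cell line of human colorectal adenocarcinoma described in the labels as like goblet cells, the mucus-secreting cells of the gut. There were 3 libraries with the genotype label FXYD3 knockout and 3 with the label WT, with no treatment or time given for either. The labels describe neither the edit nor the origin of the replicates (cultures, clones), so p-values refer to the spread of these libraries alone, which may be technical. FXYD3, a small membrane protein that regulates the Na,K-ATPase, had 79, 131 and 85 counts in the knockout-labelled libraries, against 54, 91 and 55 in wild type. The targeted transcript was not lower where the label says knockout (log2 fold change 0.54, SE 0.20, edgeR adjusted p = 0.0522, and 0.00313 without wild-type library 2). The edited stretch is not known here, so counts over the whole gene do not check the label, and every direction below goes by the labels. Library totals over named genes were 15417232 to 19453217 counts in the knockout-labelled group and 16507805 to 17596549 in wild type. All 9 markers of a colonic epithelial line had counts in every library. Among them 2 were called lower and 0 higher, beside 12.4% lower and 12.0% higher over all genes tested. The 2 were MUC2, the main gel-forming mucin, with 15.8 ± 3.91 CPM (counts scaled to library size) in the knockout-labelled libraries and 31.5 ± 1.94 CPM in wild type, and TFF3, a trefoil peptide of goblet cells, with 32.8 ± 2.39 CPM in the knockout-labelled libraries and 50.3 ± 11.7 CPM in wild type (SD, n = 3 each; edgeR adjusted p = 3.5e-05 and 0.0398). The TFF3 call was lost without knockout-labelled library 2 or 3 or wild-type library 1 or 3 (adjusted p 0.0507 to 0.173), and with limma voom (0.0780).

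A cystatin blocks its protease by wedging an inhibitory edge, formed by the N-terminal segment and hairpin loops, into the active site cleft. The secreted members act mostly outside the cell and along the secretory pathway, while stefins guard the cytosol against cathepsins that leak from lysosomes. CST1, CST2 and CST4 encode cystatins SN, SA and S, which are known from saliva and tears, and their genes stand side by side on chromosome 20.

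How far reads can be assigned to these 3 genes depends on their sequences. In GENCODE release 29 the coding sequences of CST1, CST4 and CST2 have 426 bases each, with no gap between them. CST1 and CST4 differed at 31 positions (92.7% identical), CST1 and CST2 at 37 (91.3%), and CST4 and CST2 at 32 (92.5%).

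The longest run of coding bases within an exon that CST1 and CST4 share is shown because a read that lies inside it cannot be assigned to one of the 2 genes. It has 110 bases of exon 2, coding bases 233 to 342. Capitals in CST2 mark the 4 bases that differ from CST1. The stretches, written 5′ to 3′, are on the minus strand of GRCh38, at chr20:23749016-23749125 for CST1, chr20:23687088-23687197 for CST4 and chr20:23825210-23825319 for CST2.
CST1: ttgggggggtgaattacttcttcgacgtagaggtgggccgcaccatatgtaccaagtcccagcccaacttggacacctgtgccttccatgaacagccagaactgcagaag
CST4: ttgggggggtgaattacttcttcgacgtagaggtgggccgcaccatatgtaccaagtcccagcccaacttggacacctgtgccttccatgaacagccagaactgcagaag
CST2: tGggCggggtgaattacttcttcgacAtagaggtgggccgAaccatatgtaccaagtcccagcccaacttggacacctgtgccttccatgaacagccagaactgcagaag

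Over the whole CST1 transcript of 760 bases, 27.3% of windows of 50 bases were also found in transcripts of other genes, namely CST2, CST4 and CST5. The share was 14.0% for windows of 75 bases, 8.02% for 100 and 0.491% for 150, and at 100 and 150 bases CST4 was the single gene that shared them. No window of 50 bases of the CST3 or CSTB transcript was found in another gene. Neither the read length nor the treatment of reads that match several genes is known here. The other members are less alike: the coding sequence of CST1 was 69.8% identical to that of CST3 and 39.6% to that of CSTB, over their alignments.

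**Figure D1:**
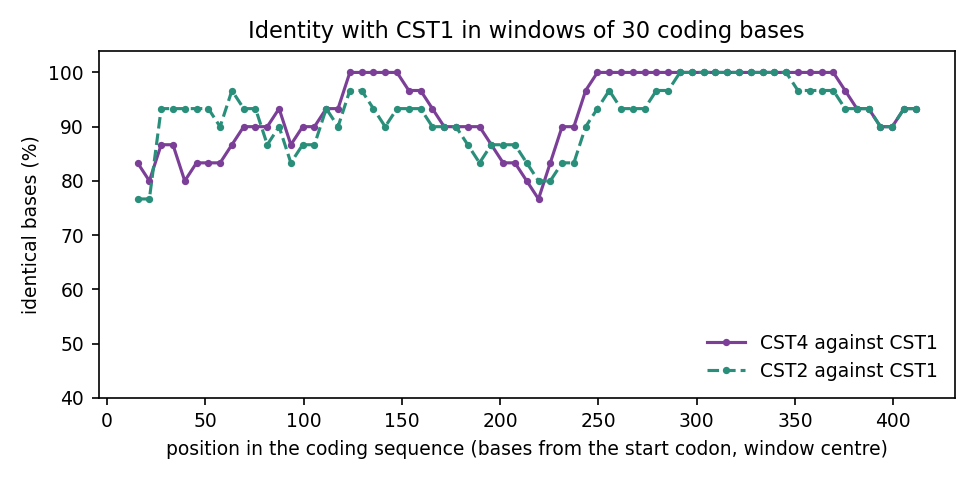
Share of identical bases (y axis, percent) between CST1 and CST4 (solid line) or CST2 (dashed line) in windows of 30 coding bases, plotted at the window centre (x axis, bases from the start codon). CST4 is at 100% in every window centred from 249.5 to 369.5, a stretch that starts in exon 2 and runs past its end, and the lowest window of either gene is at 76.7%.

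Among the members, CST1 was far more abundant in the knockout-labelled libraries than in wild type, and the levels of CST3 and CSTB overlapped between the groups. The other 5 members were at or near 0 counts. Of the 8 members, 3 passed the filter on low counts (CST1, CST3 and CSTB) and were fitted with the 15351 genes tested. At an adjusted p below 0.05, 24.3% of all genes tested were called, 12.0% higher and 12.4% lower. Neither CST3 nor CSTB was called. CST1 chose the family, so its values are described and its test is not read.

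CST1 (ENSG00000170373) lies on the minus strand of chromosome 20, from 23747553 to 23751268 in GRCh38, and has 3 exons. It had 2399, 3371 and 2549 counts in the knockout-labelled libraries, against 92, 116 and 137 in wild type. After TMM normalization these were 155, 172 and 152 CPM in the knockout-labelled libraries, against 5.32, 6.52 and 8.51 CPM in wild type. All 3 knockout-labelled libraries lay close together and the groups were far apart. In bulk RNA, more cells with CST1 transcript and more transcript per cell cannot be told apart.

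The mean of CST1 was 160 ± 11.1 CPM in the knockout-labelled libraries and 6.78 ± 1.61 CPM in wild type (SD, n = 3 each). That is a log2 fold change of 4.56 (SE 0.11, 95% interval 4.34 to 4.79), or 23.7-fold. The SE and interval take no account of the choice of CST1 for its size and are not read as a test. Ordered by mean CPM over the 15351 genes tested, CST1 stood at rank 1165 in the knockout-labelled libraries and at rank 10544 in wild type. By log2 fold change it stood at rank 19 of all genes tested and at rank 4 of the 11113 with a mean of at least 5 CPM. In that narrower order TRPM6, a magnesium channel gene, was next above it at 4.81, and GUCY1A1, a subunit of soluble guanylate cyclase, next below at 4.43. Counting CST1, CST2 and CST4 as 1 feature gave 4.56 as well, because nearly all counts of the 3 were assigned to CST1. That sum cannot show where reads that match several of these genes went.

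CST4 (chromosome 20, 23685640 to 23689040, minus strand) had 8, 1 and 3 counts in the knockout-labelled libraries, against 1, 0 and 0 in wild type. The highest library was knockout-labelled 1, and each group had a library with 1 count, so the groups overlapped. The sums were 12 counts over the knockout-labelled libraries and 1 over wild type, a ratio of 11.9 with a counting interval of 1.75 to 507 that covers counting error only. CST4 held 0.144% of the counts of CST1 and CST4 together in the knockout-labelled libraries (exact 95% interval 0.0744 to 0.251%), against 0.289% in wild type (0.00732 to 1.60%). Whether reads of CST1 were assigned to CST4 was not tested.

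CST2 (chromosome 20, 23823769 to 23826731, minus strand) had 0 counts in all 6 libraries. A count of 0 allows up to 3 counts, which is 0.0579 CPM over the knockout-labelled group and 0.0586 CPM over wild type. CST2 transcript was thus not detectable at this depth in either group, although CST1, of which it is a close copy, had 8319 counts in the knockout-labelled libraries and 345 in wild type.

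CST3 (ENSG00000101439; chromosome 20, 23626706 to 23638473, minus strand) encodes cystatin C, the secreted inhibitor made by most cell types. It had 241, 228 and 203 CPM in the knockout-labelled libraries, against 222, 202 and 233 CPM in wild type. The groups overlapped, with the highest library in the knockout-labelled group and the lowest in wild type. Means were 224 ± 19.3 CPM in the knockout-labelled libraries and 219 ± 15.9 CPM in wild type (SD, n = 3 each). Its log2 fold change of 0.03 did not pass (SE 0.07, 95% interval -0.10 to 0.17, edgeR adjusted p = 0.783). Its sign turned on leaving out knockout-labelled library 1 (-0.023) or wild-type library 2 (-0.026), so CST3 has no direction here.

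CSTB (ENSG00000160213; chromosome 21, 43772511 to 43776445, minus strand) encodes stefin B, a cytosolic inhibitor whose loss causes a progressive myoclonus epilepsy. It had 217, 226 and 227 CPM in the knockout-labelled libraries, against 214, 194 and 244 CPM in wild type. The knockout-labelled values lay inside the wild-type range. Means were 223 ± 5.26 CPM in the knockout-labelled libraries and 218 ± 25.3 CPM in wild type (SD, n = 3 each), a log2 fold change of 0.04 (SE 0.07, 95% interval -0.10 to 0.18; edgeR adjusted p = 0.731). Without wild-type library 2 the log2 fold change was -0.039.

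CSTA encodes stefin A, the cytosolic inhibitor of stratified epithelia (chromosome 3, 122325244 to 122341972, plus strand). It had 0, 1 and 0 counts in the knockout-labelled libraries, against 6, 1 and 6 in wild type. A library with 1 count occurred in both groups, and the other 2 wild-type libraries had 6 counts each. The sums of 1 count over the knockout-labelled libraries and 13 over wild type gave a ratio of 0.0760, with a counting interval of 0.00179 to 0.506. When the fit was run with no filter on low counts, the edgeR adjusted p of CSTA was 0.122, and CSTA was not called.

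CST7 (chromosome 20, 24949230 to 24959928, plus strand) encodes cystatin F, which is made mainly by leukocytes and acts on cathepsins inside their granules. It had 4, 8 and 1 counts in the knockout-labelled libraries, against 3, 1 and 2 in wild type, and the groups overlapped. The ratio of the sums was 2.14, with a counting interval of 0.759 to 6.87. Of 9 leukocyte markers, PTPRC, CD3E, MS4A1 and TYROBP were at 0 in all 6 libraries. The summed level of the 9 was 32.7 to 33.9 CPM in the knockout-labelled libraries and 34.1 to 38.6 CPM in wild type, most of it from LYZ, which intestinal secretory cells also express. CST6 (chromosome 11, 66011841 to 66013505, plus strand), the cystatin of skin that also inhibits legumain, had 0, 2 and 0 counts in the knockout-labelled libraries and 0, 0 and 1 in wild type, too few for a fold change.

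**Figure D2:**
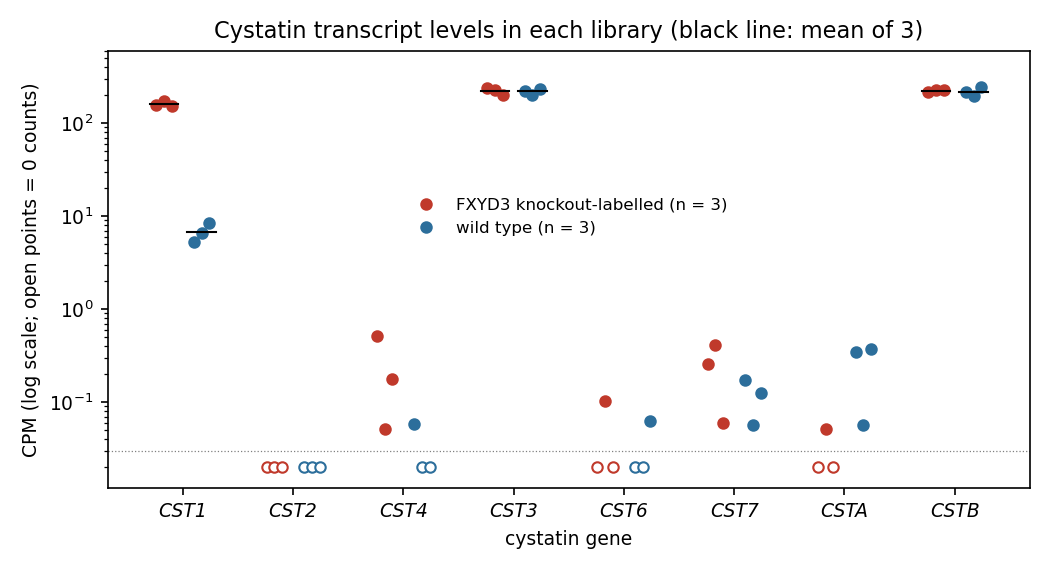
CPM of each of the 8 members (x axis) in every library on a log scale (y axis), with knockout-labelled libraries in red on the left of each pair and wild-type libraries in blue on the right; open points below the dotted line are libraries with 0 counts, and black lines are means of 3, drawn for the genes past the count filter. The groups separate widely for CST1 and overlap for CST3 and CSTB, and the other 5 members stay below 1 CPM.

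The share of the family that CST1 made up differed widely between the groups. It held 25.3, 27.5 and 26.1% of all member counts in the knockout-labelled libraries, against 1.20, 1.62 and 1.75% in wild type. The sum over the 8 members was 608 ± 22.9 CPM in the knockout-labelled libraries and 444 ± 42.1 CPM in wild type (SD, n = 3 each). Without CST1 the sum was 448 ± 15.3 CPM in the knockout-labelled libraries and 437 ± 41.1 CPM in wild type, and those ranges overlapped. These shares and sums hold the value that chose the family and were not tested.

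Levels of different genes can be set side by side only per length. With the gene lengths of the deposited table, CST1 had 183 ± 12.7 CPM per kb in the knockout-labelled libraries and 7.78 ± 1.85 in wild type. CST3 had 60.6 ± 5.22 CPM per kb in the knockout-labelled libraries and 59.3 ± 4.30 in wild type, and CSTB had 56.8 ± 1.34 in the knockout-labelled libraries and 55.3 ± 6.43 in wild type (SD, n = 3 each). On that scale CST1 stood above both in every knockout-labelled library and below both in every wild-type library, while CST3 and CSTB overlapped. The place of CST1 in the knockout-labelled libraries and the overlap of CST3 and CSTB both depend on the length used. Those table lengths are 872 bases for CST1 but 3695 for CST3 and 3935 for CSTB, much longer than the principal GENCODE transcripts of 873 and 2164 bases. Per kb of transcript, CST3 at 256 ± 22.1 CPM was above CST1 at 210 ± 14.6 CPM in the knockout-labelled libraries, and CSTB was lower than both at 103 ± 2.43 CPM. Per kb of coding sequence the order turned, with CSTB at 752 ± 17.7 CPM above CST3 at 507 ± 43.8 CPM in the same libraries. In wild type CST1 was lowest of the 3 with every length tried.

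**Figure D3:**
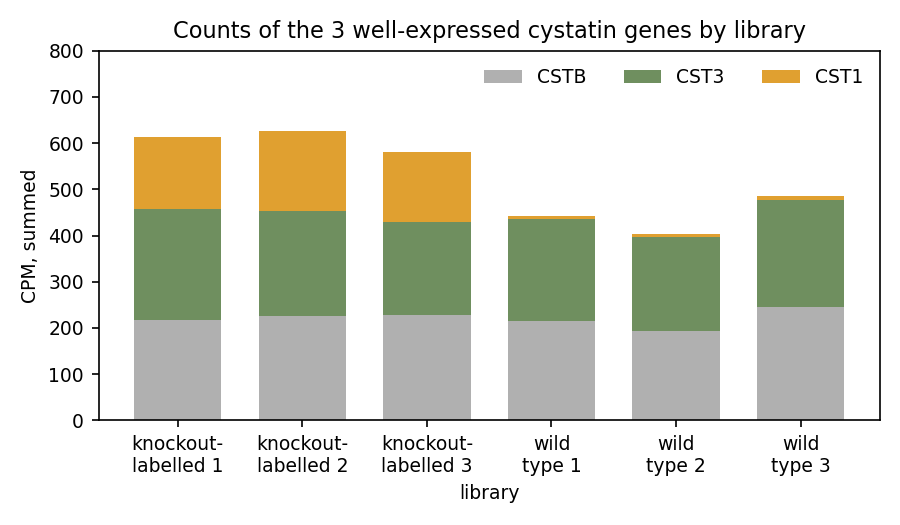
Summed CPM (y axis) of CSTB, CST3 and CST1 in each of the 6 libraries (x axis), with knockout-labelled libraries on the left; CPM is not corrected for gene length. The members other than CST1 sum to 430 to 459 CPM in the knockout-labelled libraries and 396 to 478 CPM in wild type, and CST1 adds 152 to 172 CPM in the knockout-labelled libraries and 5.32 to 8.51 CPM in wild type.

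The cystatin cluster on chromosome 20 was then read gene by gene. In the stretch from 200 kb before CSTL1 to 200 kb after CST7 the table has 19 protein-coding genes, of which 8 had 0 counts in all 6 libraries (CST11, CST8, CST9L, CST9, CST2, CST5, GGTLC1 and SYNDIG1). CST2 and CST5, the next coding genes on one side of CST1, start 75.5 and 128 kb away. On the other side, with negative distances, CST4 starts at -62.2 kb and CST3 at -112.8 kb. Beyond CST3 the nearest coding genes tested were NAPB, at -329.7 kb, and APMAP, at 1242 kb. Between CST4 and CST5 no gene other than CST1 had a count in any library. Of 10 further genes of the cystatin superfamily, most of them in this cluster, 8 were at 0, and CSTL1 (2 counts over the knockout-labelled libraries, 1 over wild type) and HRG (5 over the knockout-labelled libraries, 0 over wild type) were too low to test.

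Outside CST1, of the 6 other coding genes of that stretch that were tested, 1 was called higher and 0 lower. Over all genes tested the shares were 12.0% higher and 12.4% lower. ACSS1, a mitochondrial acetyl-CoA synthetase gene 1308 kb from CST1, had 64.4 ± 6.88 CPM in the knockout-labelled libraries and 48.8 ± 1.08 CPM in wild type (SD, n = 3 each), with an edgeR adjusted p of 0.000264. CST3, NXT1, GZF1, NAPB and APMAP did not pass, with log2 fold changes of -0.07 to 0.11. All of these were far smaller than the 4.56 of CST1, which was chosen for its size, so that contrast is no result about the cluster.

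**Figure D4:**
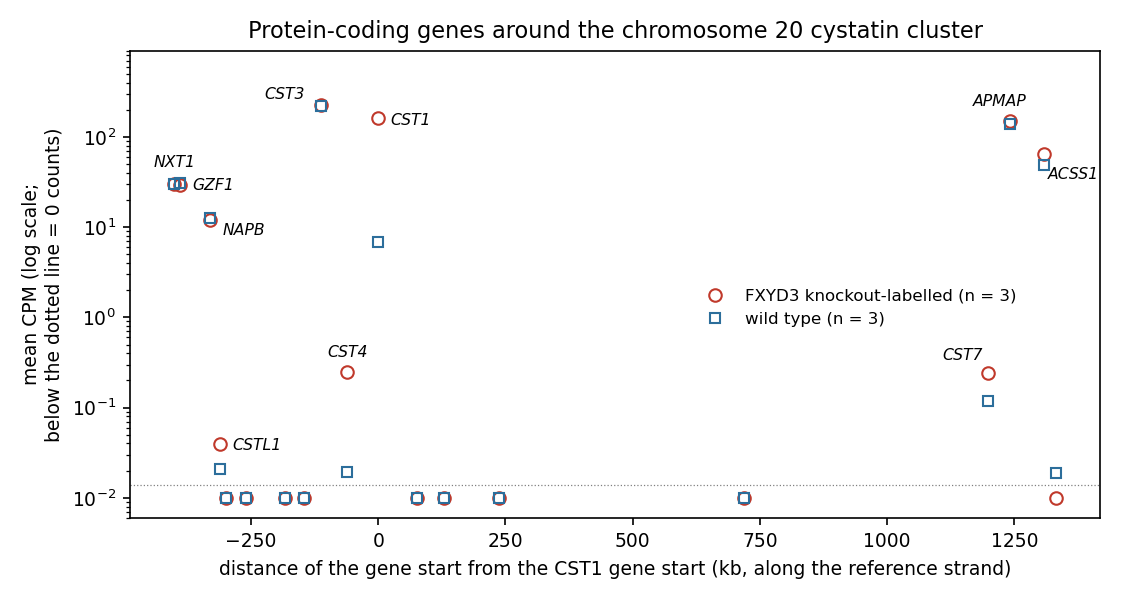
Mean CPM on a log scale (y axis) of the 19 protein-coding genes around the cystatin cluster, by the distance of their start from that of CST1 in kb (x axis); red circles are the knockout-labelled and blue squares the wild-type libraries (n = 3 each), and points below the dotted line had 0 counts. CST1 is the gene whose 2 symbols stand far apart at a level above 1 CPM.

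Cystatins act on proteases, so the 11 cysteine cathepsins were read from the same fit. Among the 7 that could be tested, 4 passed, 3 of them lower and 1 higher, beside 12.4% lower and 12.0% higher over all genes tested. Their median log2 fold change was -0.16, against 0.0021 over all genes tested. CTSF, a lysosomal endopeptidase, had 5.88, 5.83 and 5.48 CPM in the knockout-labelled libraries, against 14.6, 14.0 and 16.5 CPM in wild type. No knockout-labelled library reached the lowest wild-type one, and the log2 fold change was -1.39 (SE 0.13, edgeR adjusted p = 2.4e-09). CTSH, mainly an aminopeptidase, had 59.6, 60.6 and 56.6 CPM in the knockout-labelled libraries, against 83.3, 82.1 and 89.9 CPM in wild type. It fell by 0.53 on the log2 scale (SE 0.07, edgeR adjusted p = 6.5e-07), again without overlap. Groups did not overlap for 37.2% of all genes tested.

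CTSC and CTSB changed by less. CTSC, a dipeptidyl peptidase that activates granule proteases, had 163 ± 3.72 CPM in the knockout-labelled libraries and 142 ± 5.42 CPM in wild type (SD, n = 3 each; edgeR adjusted p = 0.0116). Its call was lost without knockout-labelled library 3 (adjusted p = 0.0501) or wild-type library 1 (0.0812). CTSB, a broadly expressed endopeptidase and carboxypeptidase, had 271 ± 10.7 CPM in the knockout-labelled libraries and 303 ± 14.7 CPM in wild type, a log2 fold change of -0.16 (SE 0.06, edgeR adjusted p = 0.0388). That call was lost under 7 of 15 alternatives, with adjusted p-values of 0.0693 to 0.171, among them upper-quartile and total-count scaling, knockout-labelled library 1 or 3 left out, and wild-type library 1 or 3 left out. With the replicate number as a block its adjusted p was 0.117.

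CTSZ, a carboxypeptidase, had 125 ± 4.49 CPM in the knockout-labelled libraries and 123 ± 9.51 CPM in wild type. The edgeR adjusted p of CTSZ was 0.893. CTSV, a close relative of cathepsin L, had 26.9 ± 2.05 CPM in the knockout-labelled libraries and 29.4 ± 3.43 CPM in wild type. For CTSV the edgeR adjusted p was 0.363. CTSK, best known from bone-resorbing cells, was low in both groups, at 1.48 ± 0.505 CPM in the knockout-labelled libraries and 1.68 ± 0.531 CPM in wild type (edgeR adjusted p = 0.774; SD, n = 3 each throughout). None of these 3 passed, and each of their intervals of the log2 fold change included 0.

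The 4 remaining cysteine cathepsins had too few counts to test. CTSL, a main lysosomal endopeptidase in many tissues, had 0 counts over the knockout-labelled libraries and 1 over wild type. CTSS, a cathepsin of antigen-presenting cells, had 14 counts over the knockout-labelled libraries and 25 over wild type. CTSO had 11, 9 and 1 counts in the knockout-labelled libraries, against 1, 0 and 0 in wild type. Its sums of 21 over the knockout-labelled libraries and 1 over wild type gave a ratio of 20.8 with a counting interval of 3.34 to 858. Knockout-labelled library 3 and wild-type library 1 both had 1 count of CTSO. With no filter on low counts the edgeR adjusted p was 0.0135 for CTSO, 0.598 for CTSL, 0.511 for CTSS and 0.138 for CTSW. CTSW had 8 counts over the knockout-labelled libraries and 0 over wild type, but it overlaps FIBP on the opposite strand, a gene with 4554 counts over the knockout-labelled libraries and 4417 over wild type, and since the strand setting is not given in the sources used here, it is not known whether their reads were separated.

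Legumain, the asparaginyl endopeptidase that some secreted cystatins also inhibit, is encoded by LGMN. It had 60.1, 59.9 and 62.9 CPM in the knockout-labelled libraries, against 71.3, 65.3 and 65.5 CPM in wild type. The groups did not overlap, but the log2 fold change of -0.15 (SE 0.07) did not pass (edgeR adjusted p = 0.13). PIGK, a legumain relative in the enzyme complex that attaches membrane anchors, had 34.6 ± 1.93 CPM in the knockout-labelled libraries and 36.9 ± 3.01 CPM in wild type (SD, n = 3 each; edgeR adjusted p = 0.454). PIGK overlaps a pseudogene on the opposite strand.

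Cathepsins that are not cysteine proteases, and that cystatins of this family are not known to inhibit, were set beside these. All 3 that were tested were lower, beside 12.4% lower over all genes tested, and CTSG was at 0. CTSD, the main aspartic protease of lysosomes, had 137, 147 and 130 CPM in the knockout-labelled libraries, against 188, 185 and 205 CPM in wild type. Its log2 fold change was -0.48 (SE 0.06, edgeR adjusted p = 5.3e-07). CTSE, an aspartic protease of the stomach and gut epithelium, had 5.78 ± 0.843 CPM in the knockout-labelled libraries and 11.5 ± 0.193 CPM in wild type (SD, n = 3 each; edgeR adjusted p = 4.0e-06). CTSA, a serine carboxypeptidase that also protects other lysosomal enzymes, fell by 0.22 on the log2 scale (SE 0.06, edgeR adjusted p = 0.0119). The CTSA call was lost without knockout-labelled library 1 or 3 or wild-type library 1 (adjusted p 0.0521 to 0.0753).

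**Figure D5:**
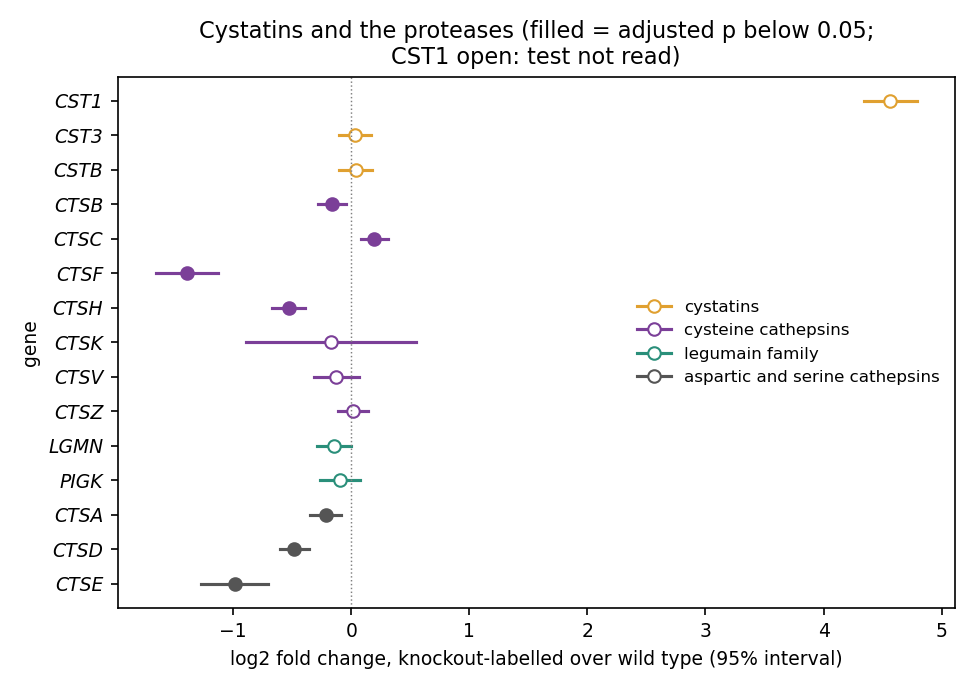
Log2 fold change, knockout-labelled over wild type, with its 95% interval (x axis) for the tested cystatins, cysteine cathepsins, legumain family and other cathepsins (y axis); filled points have an edgeR adjusted p below 0.05, and CST1 is drawn open because it chose the family and its test is not read. CST1, whose interval takes no account of that choice, stands at 4.56 while the other genes lie between -1.39 and 0.19.

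Of 10 genes of lysosomal sorting, lysosomal membrane and lysosomal gene regulation, 1 was higher, 1 was lower and 8 did not pass. Over all genes tested, the shares were 12.0% higher and 12.4% lower. The median log2 fold change of the 10 was -0.06. GNPTAB, a subunit of the enzyme that tags lysosomal proteases with mannose phosphate, had 86.1 ± 3.01 CPM in the knockout-labelled libraries and 75.9 ± 3.40 CPM in wild type (SD, n = 3 each; edgeR adjusted p = 0.0407). IGF2R, a receptor for that tag, had 34.6 ± 3.04 CPM in the knockout-labelled libraries and 41.2 ± 3.60 CPM in wild type (SD, n = 3 each; edgeR adjusted p = 0.0334). Both calls were lost under several alternatives: GNPTAB without any 1 library except wild-type 2 (adjusted p 0.0616 to 0.228), IGF2R without knockout-labelled 1, wild-type 1 or wild-type 2 (0.0836 to 0.185). The GNPTAB call was also lost with no filter on low counts (0.0985), and the IGF2R call with upper-quartile (0.0522) or total-count scaling (0.0699). DESeq2 called neither (adjusted p = 0.0603 for GNPTAB and 0.0540 for IGF2R). With the replicate number as a block their adjusted p-values were 0.109 for GNPTAB and 0.0639 for IGF2R.

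CSTA and CST6 are known from the cornified envelope of skin, so 16 genes linked to that structure or to skin shedding were read too. Of these, 8 were at 0 counts in all libraries. Among the 4 tested, 2 were lower and 0 higher, beside 12.4% lower and 12.0% higher over all genes tested. The median log2 fold change of the 4 was -0.08. KLK7, a serine protease of skin shedding, had 3.34 ± 0.635 CPM in the knockout-labelled libraries and 7.91 ± 0.743 CPM in wild type (SD, n = 3 each; edgeR adjusted p = 4.1e-06). PPL, the plakin periplakin, was lower by a smaller amount (log2 fold change -0.21, SE 0.07, edgeR adjusted p = 0.0317), and its call was lost without knockout-labelled library 1 or 2 or wild-type library 3 (adjusted p 0.0523 to 0.225) and with upper-quartile or total-count scaling (0.0521 and 0.0708). Involucrin and loricrin genes, IVL and LOR, were at 0.

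Salivary markers were checked because CST1, CST2 and CST4 are known from saliva. Of 10, HTN3, STATH, PRB1 and AMY1A were at 0 in all 6 libraries, and of the 2 tested neither was called. The summed level was 26.0 to 30.2 CPM in the knockout-labelled libraries and 22.4 to 27.7 CPM in wild type. Nearly all of it was ZG16B, a secreted lectin, with 27.2 ± 2.24 CPM in the knockout-labelled libraries and 24.5 ± 2.48 CPM in wild type (SD, n = 3 each; edgeR adjusted p = 0.254). Of 7 fibroblast markers COL1A2 was at 0, and the summed level was 6.49 to 8.29 CPM in the knockout-labelled libraries and 1.33 to 2.11 CPM in wild type. Among the 2 fibroblast markers tested, 1 was called higher and 1 was not called, beside 12.0% higher over all genes tested. The called gene, COL3A1, a collagen chain, made most of the difference in the summed level. COL3A1 had 5.63 ± 0.453 CPM in the knockout-labelled libraries and 0.313 ± 0.0901 CPM in wild type (SD, n = 3 each; edgeR adjusted p = 3.7e-11). Its wild-type counts were 7, 4 and 5, under the filter's minimum of 10. It thus entered the test only through the knockout-labelled libraries, where it is high, and its call and p-value are given as a description. Among the 2 leukocyte markers tested, 1 was called lower and 1 was not called, beside 12.4% lower over all genes tested. The called gene was CD14, with 0.388 ± 0.141 CPM in the knockout-labelled libraries and 3.71 ± 0.963 CPM in wild type (SD, n = 3 each; edgeR adjusted p = 6.7e-08). Its knockout-labelled counts were 8, 8 and 4, under the same minimum. CD14 thus entered the test only through wild type, where it is high, and its call and p-value are likewise a description. The part of COL3A1 or CD14 in the CST1 difference was not tested.

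The 5 genes whose profile over the 6 libraries was most like that of CST1 were sought among the 10486 protein-coding genes that averaged 5 CPM or more. Likeness was the root mean square difference between log2(CPM + 0.5) profiles, each centred on its wild-type mean, and smaller is more alike. TRPM6 was nearest at 0.18, with 44.9, 46.2 and 52.1 CPM in the knockout-labelled libraries, against 1.68, 1.52 and 1.93 CPM in wild type. Next were MEF2C, a transcription factor (0.39), CCDC80, a secreted matrix protein (0.42), GUCY1A1 (0.52) and CD200, a membrane glycoprotein (0.59). MEF2C averaged 11.1 CPM in the knockout-labelled libraries and 0.114 CPM in wild type, and CCDC80 67.3 CPM in the knockout-labelled libraries and 3.76 CPM in wild type. The 0.5 added shrinks the difference of genes as low as MEF2C in wild type, so its place depends on that setting. In the fit the log2 fold change of MEF2C was 6.48, against 4.56 for CST1 and 4.43 for GUCY1A1. The order was not tried with another added value. GUCY1A1 averaged 28.8 CPM in the knockout-labelled libraries and 1.31 CPM in wild type, and CD200 37.0 CPM in the knockout-labelled libraries and 2.22 CPM in wild type. These genes were picked for that pattern, so their values are a description with no test.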

How the data were processed

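Polyadenylated RNA of 6 LS174T libraries was sequenced, and per the labels' protocols TRIzol served for extraction and NEBNext Ultra for library preparation. HISAT2 2.0.5 and featureCounts 1.5.0-p3 stand in the submitters' processing notes, which also list a mouse build, mm10, but the table holds human Ensembl identifiers, and the starts and ends of the members equal those of GENCODE release 29 on GRCh38. The strand setting is not given in the sources used here, so overlapping genes are named where they matter. The authors deposited raw counts per gene and a gene length in bases, a unit outside the usual ones, used as given. The 232 of 58967 rows with no gene name held 0.130 to 0.250% of a library's counts and were left out.

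Genes were tested with edgeR 4.0.16 in R 4.3.3 (quasi-likelihood, two-sided, TMM, filterByExpr with a minimum count of 10, robust, no covariate), with Benjamini-Hochberg adjustment over all genes tested and a threshold of 0.05. Fold changes have the knockout-labelled libraries on top. CPM were computed from the counts with TMM-scaled library sizes. Counting intervals are exact, at 95%, and cover counting error only. The test was checked on simulated counts. Alternatives were other scalings and filters, DESeq2 1.42.0, limma 3.58.1 voom, edgeR without robust estimation, a block for the replicate number, and leaving out 1 library at a time. Coding sequences and shared windows came from GENCODE transcripts (Python 3.11.15, Biopython 1.88), using the principal transcript with the lowest number. No pair of libraries of a group agreed within sampling noise (chi-square per degree of freedom 3.81 to 9.07).

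The members and lists were chosen with earlier results of these data known. Genes named were the 8 members, tested cysteine cathepsins and legumain relatives, called genes of the other lists or else the most abundant one, tested coding genes within 200 kb of the chromosome 20 cystatins, and the 5 genes most like CST1. The cathepsins under the filter, CSTL1, HRG and the genes at 0 were named after their values were seen.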

Additional observations from a re-analysis of the deposited data

How the results depend on the processing

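CST1 had a log2 fold change of 4.41 to 4.75 over the 16 alternatives run. They reuse the libraries in which CST1 was chosen for its size, so its direction could hardly turn. That range describes the processing and is no support for the difference. CST3 and CSTB were not called under any of 15. With libraries left out, the log2 fold change ranged from -0.026 to 0.098 for CST3 and from -0.039 to 0.13 for CSTB. The targeted gene FXYD3 passed the threshold with upper-quartile scaling (0.56, adjusted p = 0.0442), with no filter (0.52, 0.0479) and with the replicate block (0.54, 0.0472), and ranged from 0.38 to 0.79 with libraries left out. The number of cysteine cathepsins called higher was 2 with no filter, where CTSO was tested too, and 0 to 1 with libraries left out. Signs turned for genes that were not called: CTSK without knockout-labelled library 3 (0.085, range -0.42 to 0.085), CTSZ without knockout-labelled library 2 (-0.014) or wild-type library 2 (-0.048, range to 0.057), NXT1 with no filter (-0.0029), without knockout-labelled library 2 (-0.094) or wild-type library 2 (-0.029, range to 0.10), and NAPB without wild-type library 2 (0.024, range from -0.13). Of the cystatins, cathepsins, list genes and neighbours named with a test, the replicate block changed the call of CTSB, GNPTAB, IGF2R and FXYD3. Genes called numbered 1329 to 2189 higher and 1376 to 2401 lower over the alternatives.

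Per kb of transcript in place of the table's length, means were 210 CPM for CST1 in the knockout-labelled libraries, 256 for CST3 in the knockout-labelled libraries and 251 in wild type, and 103 for CSTB in the knockout-labelled libraries and 101 in wild type. Per kb of coding sequence, the knockout-labelled libraries had 375 for CST1, 507 for CST3 and 752 for CSTB, and wild type had 15.9 for CST1, 497 for CST3 and 733 for CSTB. By construction these follow from the lengths.

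No sign of pairing by replicate number was seen. The deviations of same-numbered libraries from their group means correlated at 0.0277, -0.0977 and -0.123 for numbers 1, 2 and 3. Not every library correlated best with its own number. Deviations sum to 0 within a group of 3, so these values cannot decide whether the libraries were paired. With the replicate block, 1478 genes were called higher and 1475 lower, and the log2 fold change of CST1 was 4.57. Groups of 3 limit the precision, and the 5 members under the filter had too few counts to be tested.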
